A study of Homo sapiens with 3 samples.

Results

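The genes described here are 10 markers and regulators of epithelial-mesenchymal transition, the switch by which epithelial cells give up their junctions and take on a migratory, fibroblast-like form. They were taken by gene symbol from the deposited expression table: the intermediate filament genes VIM, KRT18 and KRT19, the cadherin genes CDH1 and CDH2, and the transcription factor genes ZEB1, ZEB2, SNAI1, SNAI2 and TWIST1. Values were read for 9 of the 10, out of 19049 genes in all, and TWIST1 was not analysed here. The measurements are RNA sequencing of MDA-MB-231, an established human breast cancer line of basal-like, mesenchymal character, in which KAP1 (the corepressor encoded by TRIM28) was depleted with a short hairpin RNA in every library. KAP1 was put back as wild type (wt), as S473A, with the serine replaced by alanine, which cannot be phosphorylated, or as S473D, with aspartate, whose charge imitates phosphoserine. There is 1 library per form, so no p-value exists, no replicate error can be given, and each difference is between 2 libraries. The labels do not say how KAP1 was re-expressed or whether each line is 1 clone or a pool.

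Epithelial cells hold together through E-cadherin, the product of CDH1, and carry keratin filaments built from pairs of a type I and a type II keratin. KRT18 and KRT19 encode type I keratins of simple epithelia, whose usual type II partner is KRT8. In the transition, the zinc finger proteins of the SNAI and ZEB families and the helix-loop-helix protein TWIST1 repress CDH1, while vimentin (VIM) filaments and often N-cadherin (CDH2) are gained. MDA-MB-231 is widely used as a line that lies toward the mesenchymal end while keeping some keratins.

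Levels are in RPKM, reads per kilobase of transcript scaled to the counted reads of the library, so levels of different genes can be set side by side. Differences are of log2(RPKM + 1), which understates those of genes at a low level, and cover the 11571 genes whose mean RPKM was 1 or more. Of the 9 genes read, 6 met that minimum: VIM, KRT18, KRT19, SNAI2, ZEB1 and ZEB2. SNAI1, CDH1 and CDH2 lay below it, and only their levels and ratios are given. Intervals beside ratios are exact 95% intervals for counting error alone, from read numbers estimated at depths of 25700000 (wt), 29300000 (S473A) and 23900000 (S473D) counted reads. TRIM28 itself stood at 28.7 (wt), 32.3 (S473A) and 25.6 RPKM (S473D), values that do not separate the cells' own transcript from the one put back. The S473D library differed from wt across the transcriptome by transcript length: the median difference was 0.45 for 554 genes with transcripts of up to 1000 bases and -0.27 for 1206 genes with transcripts over 7000 bases, and -0.10 over all genes. Differences were therefore also taken after fitted trends on length and GC were removed. These are given for the 6 genes in S473D against wt and for some of the other differences that involve S473D. Where none is given, a difference may still change under that step. The fitted trend joins length and GC content, so the length medians alone do not give it. Against wt it was 0.03 for ZEB1 (6267 bases, GC content 38.5%) and 0.31 for SNAI2 (2010 bases, 42.5%). What part length or GC bias has in any difference was not tested.

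The defining genes of the line were in place in all 3 libraries. EGFR, the growth factor receptor gene typical of basal-like lines, stood at 59.6 (wt), 62.6 (S473A) and 49.5 RPKM (S473D), and CAV1, which encodes caveolin-1, at 101, 99.9 and 114. ESR1, the estrogen receptor gene of luminal cells, was at 0.165, 0.0588 and 0.240 RPKM. The 9 basal-like and mesenchymal markers summed to 1557 (wt), 1555 (S473A) and 1470 RPKM (S473D), of which VIM alone gave 738, 740 and 673. The 9 luminal markers, mostly KRT8, KRT18 and KRT19 by level, summed to 355, 344 and 436. S473D was thus lowest in the former sum and highest in the latter, but genes within each list went both ways. Of the 9 basal-like and mesenchymal markers 3 were above wt in S473D and 6 below it, where 60.7% of all genes were below. Their median was -0.13, close to the -0.10 of all genes (-0.11 beside -0.10 with the trends removed). ANXA1 was the highest of these, at 162, 165 and 270 RPKM (log2 difference from wt 0.73), and MSN the lowest, at 189, 190 and 129 (-0.55). Of the 6 luminal markers compared, 5 were above wt in S473D, among them KRT8, KRT18 and KRT19, and GATA3 was below it (1.72, 1.83 and 1.45 RPKM). The median was 0.19 beside -0.10 for all genes (0.09 beside -0.10 with the trends removed). KRT18 and KRT19 are among the genes described here, so this count partly repeats their values. Of markers for cells that should be absent, 4 endothelial genes summed to about 1 RPKM in each library (0.979 to 1.03) and 6 fibroblast genes to between 1.89 and 1.93, with 2, 1 and 1 of the 6 listed at 0. PTPRC, the pan-leukocyte gene, was at 0.0264 RPKM in wt and listed at 0 in S473A and S473D. Of the 4 leukocyte genes only CD68, a lysosomal membrane gene, stood above 1 RPKM (50.1, 51.6 and 36.7).

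**Figure D1:**
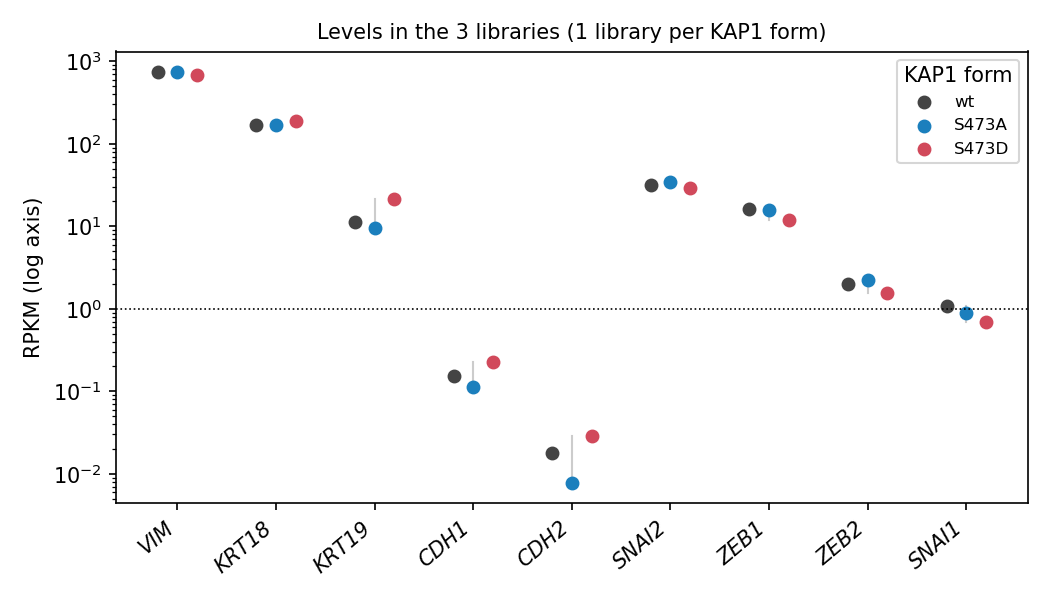
Levels of the 9 genes in RPKM (log axis), 1 point per library, with grey lines spanning the lowest to the highest of the 3 values and a dotted line at 1 RPKM. VIM lies highest (673 to 740 RPKM) and CDH2 lowest (0.00777 to 0.0286 RPKM), and KRT19 is the gene above the dotted line whose S473D point lies farthest above the other 2.

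VIM, which encodes the main intermediate filament protein of mesenchymal cells, was the most abundant of the 9 genes by far. Its level was 738 (wt), 740 (S473A) and 673 RPKM (S473D), rank 35 of 19049 genes in wt and in S473A and rank 89 in S473D. The wt and S473A values were within counting error of each other (ratio 1.0, interval 0.989 to 1.02). VIM was 1.10-fold higher in wt than in S473D (interval 1.08 to 1.11), a log2 difference of -0.13 for S473D minus wt. That is close to the median of all genes (-0.10), and 45.7% of the genes compared were as low or lower. With the trends removed it was -0.17, and centred on the median of all genes -0.03. VIM thus lay near the middle of all genes in each of the 3 comparisons. In the pair of differences from wt, the genes nearest to VIM among 128 of similar level (a mean within 2-fold of its own) were EEF1G, a translation elongation factor gene, at a Euclidean distance of 0.0279 on the log2 scale, and PKM, which encodes a pyruvate kinase, at 0.0374.

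KRT19, the gene of the smallest type I keratin, differed most among the 6 genes compared. It stood at 11.1 (wt), 9.45 (S473A) and 21.5 RPKM (S473D), which rest on about 398, 385 and 714 reads. The S473D level is the high value and the S473A level the lowest. In S473D KRT19 exceeded its wt level 1.93-fold (interval 1.70 to 2.18; log2 difference 0.89) and its S473A level 2.28-fold (interval 2.01 to 2.59; log2 difference 1.11). Of the genes compared, 0.510% were as high or higher in S473D against S473A, KRT19 included, and 1.84% in S473D against wt. In the other contrast it was 1.18-fold higher in wt than in S473A (interval 1.02 to 1.36; log2 difference -0.22), and 2.20% of the genes compared were as low or lower. With the trends removed, the difference was 0.70 for S473D minus wt and 0.93 for S473D minus S473A, the latter then short of 2-fold. The transcript is 1390 bases long, in the range where the S473D library lay above wt in general, and the trend at its length and GC content was 0.19 against wt. The genes nearest to its pair of differences among 4644 of similar level were EVI2A (11.6 (wt), 10.3 (S473A) and 22.6 RPKM (S473D)), at a distance of 0.0550, and PPIE, a peptidyl-prolyl isomerase gene (21.7, 18.5 and 39.5), at 0.0554.

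KRT18, which encodes the type I keratin paired with KRT8 in simple epithelia, was far more abundant than KRT19 and nearly level. It stood at 171 (wt), 169 (S473A) and 188 RPKM (S473D). The ratio to wt was 0.988 for S473A (interval 0.956 to 1.02) and 1.10 for S473D (interval 1.06 to 1.14). The log2 difference between S473D and wt was 0.13, or 0.23 centred on the median of all genes (-0.10). With the trends removed it was -0.01, so its sign depends on that step. The median of all genes was still -0.10 then, and KRT18 lay above it either way. ARPC2, an actin-nucleating complex gene, and KARS, a tRNA synthetase gene, lay nearest to KRT18 among 522 genes of similar level, at distances of 0.00643 and 0.00892. GENCODE lists 68 numbered pseudogenes of KRT18 and 50 of KRT8 but 5 of KRT19, so the values of KRT18 and KRT8 are uncertain where reads could be shared with such copies. Of these copies, KRT18P55 was at 1.55, 1.76 and 1.52 RPKM and KRT8P41 at 1.98, 2.29 and 2.68.

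The proportions among keratin transcripts were similar in wt and S473A and differed in S473D. KRT8, the type II partner, stood at 131 (wt), 126 (S473A) and 178 RPKM (S473D), with S473D 1.36-fold above wt (interval 1.32 to 1.40; log2 difference 0.44, or 0.43 with the trends removed). The level of KRT18 was 1.30 times that of KRT8 in wt, 1.34 times in S473A and 1.05 times in S473D. KRT19 amounted to 6.52% of the KRT18 level in wt, 5.60% in S473A and 11.5% in S473D. KRT18 held most of the summed RPKM of the 15 type I keratin genes (86.2%, 86.8% and 83.0%), and KRT8 most of that of the 10 type II genes (94.7%, 95.1% and 97.1%). The VIM level still exceeded the sum of these 25 keratin genes 2.19-fold in wt, 2.26-fold in S473A and 1.64-fold in S473D.

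Of 28 keratin genes listed for context, 17 were read and 5 had a mean of at least 1 RPKM: KRT8, KRT10, KRT18, KRT19 and KRT80. KRT34, a hair keratin gene outside that list, was the only other of the 25 keratin genes above that mean (2.73, 2.45 and 2.77 RPKM). In S473D against wt 4 of the 5 were higher and KRT80, an epithelial type II keratin gene, lower (5.51 against 4.19 RPKM, log2 difference -0.33), with a median of 0.13 beside -0.10 for all genes. With the trends removed the median of the 5 was -0.00 beside -0.10 for all genes. KRT10, a keratin of differentiated epidermis, was at 12.4, 12.8 and 13.0 RPKM. KRT5 was not analysed here, and the basal keratin genes KRT14 and KRT17 were near or at 0 (at most 0.0493 RPKM). KRT15 was higher than these but below the minimum mean, at 0.632 (wt), 0.626 (S473A) and 0.770 RPKM (S473D). The same comparison of other intermediate filament genes gave 1 of 5 higher and 4 lower, where 60.7% of all genes were lower. The median was -0.21 beside -0.10 for all genes (-0.01 beside -0.10 with the trends removed), so the side of the all-gene median on which it lay depends on that step. LMNB1, the gene of lamin B1 in the nuclear lamina, was lowest, at 47.8 (wt), 46.9 (S473A) and 27.2 RPKM (S473D), a log2 difference from wt of -0.79 (-0.69 with the trends removed). LMNB2 stood at 88.5, 88.4 and 61.0 RPKM, and LMNA, which encodes lamins A and C, at 126, 125 and 111. NES, the nestin gene, was higher, at 1.15, 1.36 and 1.85 RPKM. DES, the muscle filament gene, had 2 reads or fewer in each library.

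**Figure D2:**
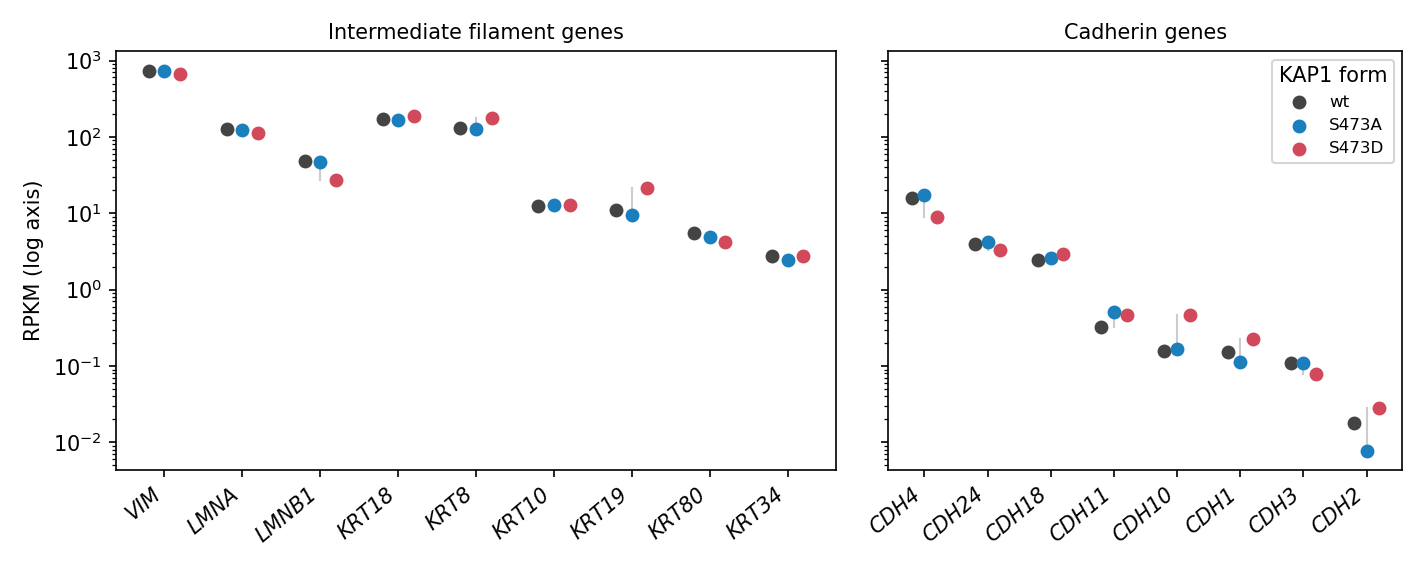
Levels in RPKM (log axis) of intermediate filament genes (left) and cadherin genes (right), 1 point per library, with grey lines spanning the 3 values. VIM (673 to 740 RPKM) stands above KRT18 and KRT8, while CDH4 (9.07 to 17.2 RPKM) stands above all other cadherin genes and CDH1 lies at or below 0.225 RPKM.

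E-cadherin and N-cadherin transcripts were both close to the detection limit. CDH1 was at 0.153 (wt), 0.113 (S473A) and 0.225 RPKM (S473D), about 19.2, 16.2 and 26.3 reads. S473D was the highest and S473A the lowest, with a ratio of 2.0 between them (interval 1.03 to 3.98), while the interval of S473D against wt included 1 (ratio 1.47, interval 0.783 to 2.81), as did that of S473A against wt (0.737, interval 0.354 to 1.51). CDH2 was at 0.0178, 0.00777 and 0.0286 RPKM, which is 2, 1 and 3 reads, and no ratio is read from these. Within the wt library the VIM level was 4825 times that of CDH1.

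CDH4, the gene of R-cadherin, a classical cadherin described in retina and other neural tissue, was the most abundant of the 19 CDH genes read. It stood at 15.8 (wt), 17.2 (S473A) and 9.07 RPKM (S473D), 67.8%, 68.3% and 53.6% of the summed RPKM of those genes. S473D is the low value: CDH4 was 1.74-fold higher in wt (interval 1.63 to 1.86) and 1.90-fold higher in S473A (interval 1.78 to 2.02). Its log2 difference of -0.74 between S473D and wt was among the lowest 0.691% of genes and became -0.41 with the trends removed. The CDH4 transcript is long, 6513 bases. The other cadherin genes compared were CDH24 (3.92, 4.19 and 3.32 RPKM) and CDH18 (2.42, 2.56 and 2.95). CDH1 made up 0.655%, 0.447% and 1.33% of the summed cadherin RPKM.

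The catenin genes CTNNA1, CTNNB1 and CTNND1, which encode proteins of the cadherin complex, stood above every cadherin gene in each library. CTNNA1, for α-catenin, stood at 83.0 (wt), 86.0 (S473A) and 73.6 RPKM (S473D), and CTNNB1, for β-catenin, at 67.6, 65.1 and 74.2. CTNND1, for p120-catenin, which stabilises cadherins at the membrane, was at 24.9, 24.1 and 18.4 RPKM, the lowest difference of its list in S473D against wt (-0.42). Of 14 genes for catenins, plakophilins and vinculin, 10 were compared, with 0 at least 1.5-fold apart in any comparison. Of all genes 10.1% were so in S473D against wt, 9.86% in S473D against S473A and 0.242% in S473A against wt. Beside those shares, 0 of 10 is no result about the group. The median in S473D against wt was -0.23 beside -0.10 for all genes (-0.07 beside -0.10 with the trends removed).

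SNAI2, which encodes the repressor Slug, was the most abundant of the SNAI and ZEB regulators. It stood at 31.5 (wt), 34.5 (S473A) and 29.1 RPKM (S473D), 61.5%, 64.2% and 66.6% of the summed RPKM of the SNAI and ZEB genes. S473A was the highest library and S473D the lowest. SNAI2 was 1.10-fold higher in S473A than in wt (interval 1.03 to 1.17; log2 difference 0.13), a size that 6.90% of genes reached or exceeded. It was 1.19-fold higher in S473A than in S473D (interval 1.11 to 1.27), and 1.08-fold higher in wt than in S473D (interval 1.01 to 1.16; log2 difference -0.11). That difference from wt is close to the median of all genes (-0.10), and 48.6% of the genes compared were as low or lower. Centred on that median it was -0.01. With the trends removed the difference between S473D and wt was -0.42 and that between S473D and S473A -0.56, the largest shift of any of these genes under that step. The trend against wt at its length (2010 bases) and GC content (42.5%) was 0.31. SNAI1, the gene of the founding family member Snail, was far lower, at 1.09 (wt), 0.895 (S473A) and 0.684 RPKM (S473D). Its counting interval included 1 in every comparison, for S473D against wt by a narrow margin (ratio 0.627, interval 0.386 to 1.04). SNAI3 was at 0.317, 0.455 and 0.340 RPKM.

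ZEB1, which encodes a zinc finger and homeobox repressor that holds CDH1 off, had the largest log2 difference of the 3 regulators compared between S473D and wt. It stood at 16.3 (wt), 15.6 (S473A) and 12.0 RPKM (S473D). The wt and S473A values lie near each other (1.04-fold, interval 0.99 to 1.10), and S473D is the low one. ZEB1 was 1.36-fold higher in wt than in S473D (interval 1.28 to 1.44) and 1.30-fold higher in S473A (interval 1.22 to 1.38). The log2 difference of -0.41 from wt was -0.44 with the trends removed and -0.31 centred on the median, and 13.8% of all genes were as low or lower. ZEB2, the paralogue, was likewise lowest in S473D, at a lower level, 2.02 (wt), 2.24 (S473A) and 1.53 RPKM (S473D), with ZEB1 6.97 to 8.09 times higher within a library. It was 1.32-fold higher in wt than in S473D (interval 1.15 to 1.51; log2 difference -0.25, or -0.21 with the trends removed) and 1.46-fold higher in S473A (interval 1.28 to 1.67). For S473D against wt, 31.7% of the genes compared were as low as ZEB2 or lower, and centred on the median its difference was -0.15. The S473A and wt values of ZEB2 were not separated by counting error (ratio 1.11, interval 0.985 to 1.25). Neither ZEB gene reached 1.5-fold on the log2(RPKM + 1) scale in any comparison. ZEB1-AS1, an antisense neighbour of ZEB1 whose reads an unstranded count could not tell apart from those of ZEB1 where they overlap, was at 3.75, 4.15 and 3.52 RPKM.

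ZEB1 and ZEB2 are the textbook targets of the miR-200 family, microRNAs of epithelial cells that the ZEB proteins repress in turn. The mature sequences are shown because their seed (bases 2 to 8, in capitals) divides the family into 2 groups, AAUACUG for miR-200b, miR-200c and miR-429 and AACACUG for miR-200a and miR-141. They come from RefSeq (GRCh38.p14). The levels of these microRNAs were not analysed here.
hsa-miR-200b-3p: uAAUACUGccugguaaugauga
hsa-miR-200c-3p: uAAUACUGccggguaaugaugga
hsa-miR-429: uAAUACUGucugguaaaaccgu
hsa-miR-200a-3p: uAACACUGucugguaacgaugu
hsa-miR-141-3p: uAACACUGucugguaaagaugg

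The DNA letters that pair with the first seed, CAGTATT, were searched on the transcript strand of 1 GENCODE release 29 transcript per gene (GRCh38). ZEB1 held 6 matches in a 3′ UTR of 2549 bases and ZEB2 5 in 5370 bases. For CAGTGTT, which pairs with the other seed, the numbers were 3 and 4, of which 1 and 3 lay in the first 1000 bases, where 13.3% of 9122 such windows held any match and 0.0329% held 3 or more. In the first 1000 bases of the 3′ UTR, CAGTATT occurred 3 times in ZEB1 and 4 times in ZEB2, where 11.5% of 9122 such windows held any match and 0.0877% held 3 or more. SNAI2 held 1 match to CAGTATT, a number that 11.5% of windows reached, and VIM, CDH1, CDH2, SNAI1, KRT18 and KRT19 held 0. The 3′ UTRs of KRT18 (59 bases), KRT19 (126), VIM (321) and SNAI1 (830) are shorter than that window, so a 0 there says little. A match is a string of letters and does not show that a microRNA acts there. The CAGTATT matches in those first 1000 bases are printed with the 15 bases before them, the matched letters in capitals. Those to CAGTGTT are not printed.
ZEB1 at 3′ UTR base 369, chr10:31527618-31527640 (+): attgttttatcttatCAGTATTa
ZEB1 at 3′ UTR base 463, chr10:31527712-31527734 (+): atgctaaatccgcttCAGTATTt
ZEB1 at 3′ UTR base 892, chr10:31528141-31528163 (+): gtaagtgccatttctCAGTATTt
ZEB2 at 3′ UTR base 392, chr2:144389052-144389074 (-): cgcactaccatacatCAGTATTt
ZEB2 at 3′ UTR base 455, chr2:144388989-144389011 (-): cgcactacaatgcatCAGTATTa
ZEB2 at 3′ UTR base 813, chr2:144388631-144388653 (-): ttgaagcacccatgtCAGTATTa
ZEB2 at 3′ UTR base 898, chr2:144388546-144388568 (-): gttcattaattttgtCAGTATTa

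The SNAI and ZEB proteins bind DNA at the E-box CACCTG, which reads CAGGTG on the opposite strand. Promoter windows of 300 bases from RefSeq were searched for either string (both strands) for VIM, CDH2, ZEB1 and ZEB2, the 4 members with a window. VIM, ZEB2 and both windows of CDH2 held 0. ZEB1 has 7 windows, and the one with the most E-boxes, picked after they were counted, held 3. Of its other windows 1 held 1 and the rest 0. Of 35116 windows in all, 20.6% held any and 0.635% held 3 or more. It is printed with its E-boxes in capitals (GRCh38.p14), and nothing about binding follows from it.
ZEB1, chr10:31318966-31319265 (+): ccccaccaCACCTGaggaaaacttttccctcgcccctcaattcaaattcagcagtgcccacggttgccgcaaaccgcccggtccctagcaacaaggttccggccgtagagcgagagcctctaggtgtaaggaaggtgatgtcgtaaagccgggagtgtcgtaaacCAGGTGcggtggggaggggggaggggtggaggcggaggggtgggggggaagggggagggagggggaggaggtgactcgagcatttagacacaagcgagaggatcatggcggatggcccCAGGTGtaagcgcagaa

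**Figure D3:**
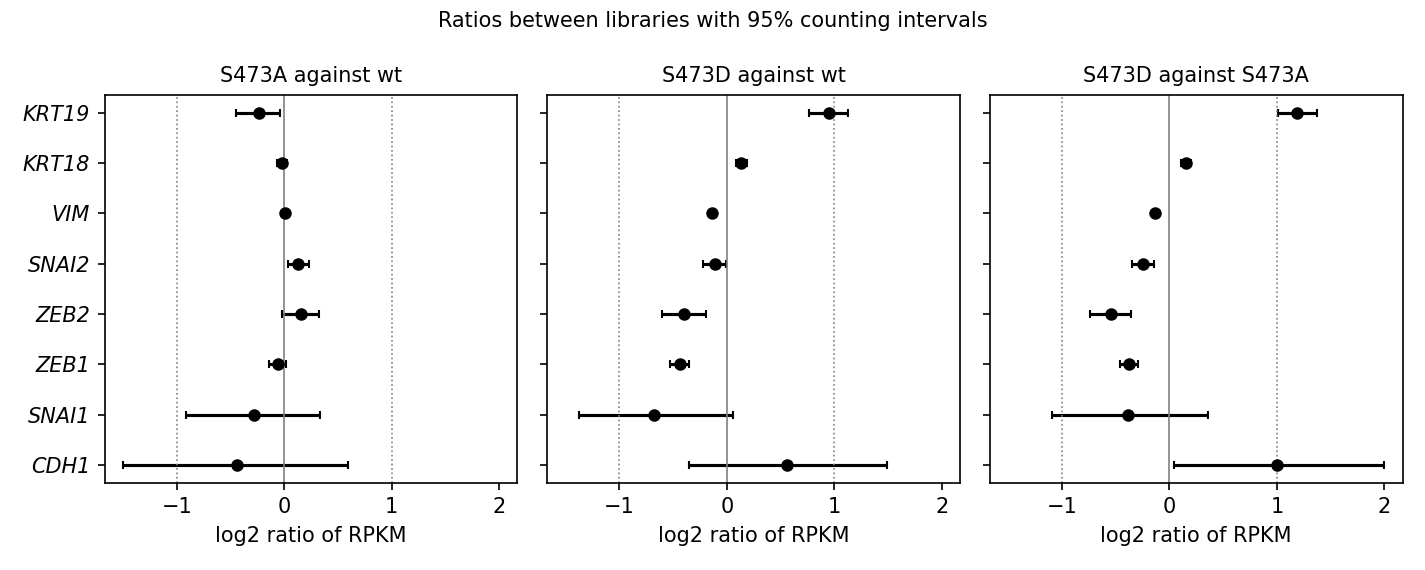
Ratios of RPKM between libraries on a log2 axis for 8 genes in the 3 comparisons, with exact 95% counting intervals as bars and dotted lines at 2-fold. KRT19 lies farthest right of the genes above 1 RPKM in both comparisons with S473D (1.93-fold against wt and 2.28-fold against S473A), ZEB1 and ZEB2 lie left of 0 there, and the bars of SNAI1 and CDH1 are the widest.

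Counted by size, few of the 6 genes compared differed. In S473A against wt 0 of 6 were at least 2-fold apart, where 0.0173% of all genes were, and 0 of 6 were at least 1.5-fold apart, against 0.242%. In S473D against wt 0 of 6 reached 2-fold, against 1.09% of all genes, and 1 of 6, KRT19, reached 1.5-fold, against 10.1%. In S473D against S473A KRT19 alone reached 2-fold, against 1.13%, and it alone reached 1.5-fold, against 9.86%. Beside that background, 1 of 6 at 1.5-fold is no result about the group. By direction, 2 of the 6 were above wt in S473D (KRT18 and KRT19) and 4 below it, where 60.7% of all genes were below. The median was -0.12 beside -0.10 for all genes (-0.19 beside -0.10 with the trends removed). In S473D against S473A the same 2 were above and 4 below, where 60.7% of all genes were below. In S473A against wt 3 were above and 3 below (50.2% of all genes below), with a median of -0.01 beside -0.00. The comparisons of each substitution with wt share the wt library, and the 2 comparisons that involve S473D share the S473D library. In bulk RNA a smaller share of cells with a transcript and less of it per cell cannot be told apart, and this holds for every value here.

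**Figure D4:**
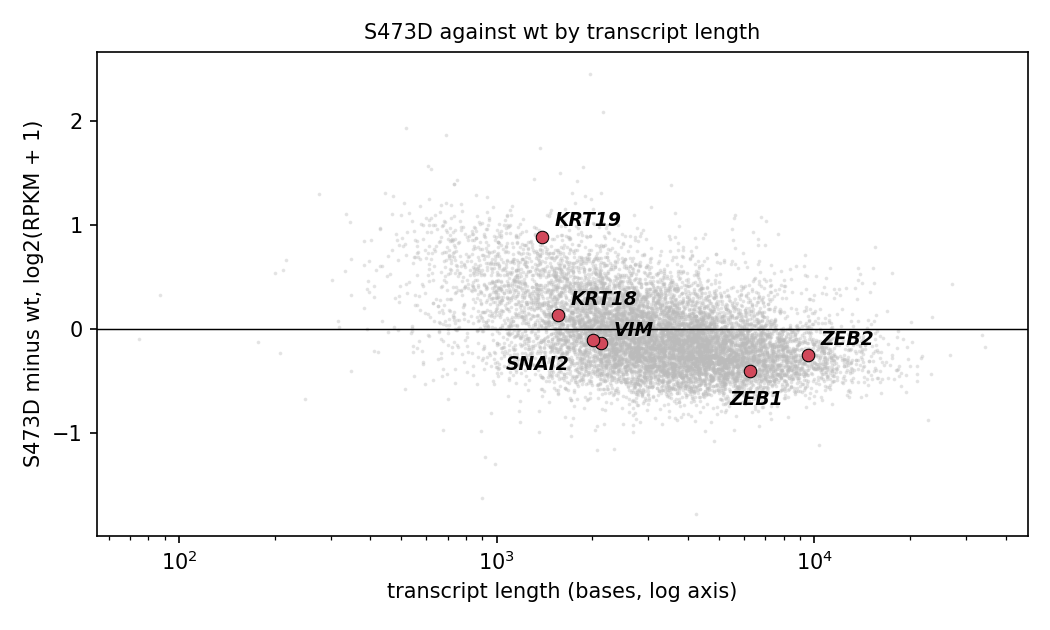
Difference S473D minus wt on log2(RPKM + 1) against transcript length (bases, log axis) for the genes compared that have a GENCODE transcript, with the 6 genes compared in red. The grey cloud falls from left to right (median 0.45 for transcripts of up to 1000 bases, -0.27 above 7000 bases), KRT19 lies at 0.89 near the upper edge at its length, and ZEB1 (-0.41) and ZEB2 (-0.25) lie among the long transcripts.

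Further genes of the same programme, listed for context, give the setting. Of 18 other transcription factors linked to the transition 15 were read and 11 compared. In S473D against wt 10 of the 11 were below wt, where 60.7% of all genes were, with a median of -0.32 beside -0.10 for all genes (-0.19 beside -0.10 with the trends removed). At least 1.5-fold apart was 1 of the 11, against 10.1% of all genes. That was ETS1, an ETS-family factor gene, at 87.4 (wt), 85.4 (S473A) and 57.1 RPKM (S473D) (log2 difference -0.61, or -0.57 with the trends removed). RUNX1 followed (17.9, 18 and 12.3 RPKM), then TCF3, which encodes the E-box-binding E2A proteins (20.7, 21.2 and 15). HMGA2, a chromatin architecture gene, stood at 39.8, 36.5 and 31.7 RPKM. GATA6 was the 1 gene above wt (3.88, 3.74 and 4.34). In S473A against wt the same 11 genes had a median of -0.03 and 0 were 1.5-fold apart, against 0.242% of all genes.

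Of the factors that hold epithelial identity, ESRP1 and GRHL2 were near the detection limit in all 3 libraries. ESRP1, an epithelial splicing regulator gene, was at 0.0545 (wt), 0.0382 (S473A) and 0.0703 RPKM (S473D), and GRHL2, an epithelial transcription factor gene that opposes ZEB1, at 0.0222, 0.0389 and 0.0796. ESRP2 was at 1.10, 0.944 and 0.751 RPKM. EHF, also below the minimum mean, was higher in S473D, at 0.614, 0.582 and 1.47 RPKM (about 49.7, 53.8 and 110.7 reads). Of 14 such genes read 4 were compared, KLF4 being the highest (9.79, 9.97 and 8.42 RPKM). Of these 4, 0 were 1.5-fold apart in any comparison. Of all genes 10.1% were so in S473D against wt, 9.86% in S473D against S473A and 0.242% in S473A against wt. FOXA1, a luminal factor gene, stood at 1.41 (wt), 1.96 (S473A) and 1.49 RPKM (S473D), the largest difference of this list between S473A and wt (0.29, 1.38-fold, interval 1.08 to 1.79).

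Epithelial junction and surface genes went both ways. Of 36 listed, 35 were read and 17 compared, 8 above wt and 9 below it in S473D, where 60.7% of all genes were below. The median was -0.11 beside -0.10 for all genes (-0.01 beside -0.10 with the trends removed). EPCAM, the epithelial adhesion molecule gene, was at 0.226, 0.197 and 0.339 RPKM, and CLDN7, a tight junction claudin gene, at 0.513, 0.753 and 0.664. The desmosome genes DSP (11.1, 10.4 and 7.14 RPKM) and DSG2 (32.9, 32.2 and 23.8) were lowest relative to wt in S473D, at -0.57 and -0.45. SPINT2, a protease inhibitor gene of epithelia, was highest (51.5, 49.8 and 68.0 RPKM, 0.39). At least 1.5-fold apart between S473D and S473A was 1 of the 17, against 9.86% of all genes, which is no result about the group. That gene was CLDN4, at 2.25 (wt), 1.73 (S473A) and 3.23 RPKM (S473D) (1.87-fold, interval 1.42 to 2.45).

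Mesenchymal effector genes went both ways. Of 26 listed, 24 were read and 15 compared, 5 above wt and 10 below it in S473D, where 60.7% of all genes were below, with a median of -0.36 beside -0.10 for all genes (-0.23 beside -0.10 with the trends removed). At least 2-fold apart were 2 of the 15, GNG11 and S100A4, against 1.09% of all genes, and 1 of them, GNG11, with the trends removed. GNG11, a G protein γ subunit gene, stood at 42.3 (wt), 45.0 (S473A) and 97.0 RPKM (S473D), with S473D 2.29-fold above wt (interval 2.20 to 2.39), with a log2 difference of 1.18 that was 1.04 with the trends removed. S100A4, a calcium-binding protein gene of motile cells, stood at 12.5, 12.6 and 27.3 RPKM, with a difference of 1.07 that was 0.45 with the trends removed. LOXL2, a collagen-crosslinking oxidase gene (96.6, 92.9 and 62.3 RPKM), MSN, which encodes moesin (189, 190 and 129), and CNN2, a calponin gene (33.5, 36.7 and 23.4), were the lowest. CD44, a hyaluronan receptor gene, was at 156, 148 and 119 RPKM. Between S473A and wt the 15 genes had a median of -0.06, and 0 were 1.5-fold apart, against 0.242% of all genes.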

How the data were processed

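RNA from 3 MDA-MB-231 libraries, 1 per re-expressed KAP1 form, was sequenced, and each library was placed by its title. Bowtie, Partek and build hg19 are named per the submitters' processing notes, and annotation, strand setting and counting rule, with tool versions, were not given in the sources used here. By their range, values as deposited are log2 of RPKM, and since the lowest is -3.32, the log2 of 0.1, in every column, 0.1 was subtracted after undoing the log. Of 19076 lines 27 with date-like or repeated symbols were left out, and 177 short RNAs were left out of the comparisons.

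Differences were taken on log2(RPKM + 1) for genes whose mean RPKM was 1 or more. With 1 library per group no test was run, and genes were counted at 2-fold and 1.5-fold. Depth was estimated as the read number at which low values became whole reads within 2% most often (44.7% to 46.3% of low values), with transcript lengths from GENCODE release 29 (the longest transcript with a RefSeq record), which may differ from the authors'. Read numbers and exact intervals rest on it and cover counting error only. Of the genes compared, 10781 (93.2%) had such a transcript, and for these lowess trends (fraction 0.2, 2 rounds) on length and GC content were removed in an alternative that kept the overall median. Other alternatives were 0.1 or 0.5 as pseudocount, a minimum mean of 5 RPKM or none, centring on the median and scaling by a trimmed mean of log ratios. The scripts were tested on simulated data and used numpy 2.4.6, scipy 1.17.1, pandas 2.3.3 and statsmodels 0.14.6.

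The genes, lists and sizes were chosen with earlier results of these data known. Named from each list were up to 3 highest and 3 lowest differences, the most abundant genes, and a few genes chosen for their role or level after their values were seen (ESR1, EGFR, CAV1, PTPRC, EPCAM, CLDN7, ESRP1, ESRP2, GRHL2, EHF, DES, KRT14, KRT15, KRT17, SNAI3, TRIM28, KRT18P55, KRT8P41 and ZEB1-AS1). For VIM, KRT18 and KRT19 the 2 genes nearest in the pair of differences from wt were named.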

Additional observations from a re-analysis of the deposited data

How the results depend on the processing

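The count of genes at least 2-fold apart between S473D and S473A was 1 (KRT19) under 6 of the 7 alternatives and 0 with length and GC trends removed, where KRT19 stood at 0.93. In the other 2 comparisons the count was 0 under all 7 alternatives. Of the 18 differences (6 genes in 3 comparisons), removing the trends changed the sign of 1, KRT18 in S473D against wt (-0.01), and moved 7 by more than the half-width of their counting interval, at most by 0.32. Centring on the median moved 7 (at most by 0.10) and scaling by a trimmed mean 8 (at most by 0.11), with 0 changes of sign, and the pseudocounts and filters moved 0 by more than that half-width, with a largest shift of 0.16 for a pseudocount of 0.1 and 0.08 for 0.5. With a minimum of 5 RPKM, ZEB2 was no longer compared. No paired analysis was possible because each group has 1 library. Depth limits CDH1, CDH2 and SNAI1, and counting intervals do not cover the spread between cultures, which 1 library per form cannot give.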
